A study of Mus musculus with 14 samples.

Results

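The subject is 10 imprinted genes with roles in growth, followed through adipocytes of 3 mouse fat depots on 2 diets: Mest, Peg3, Plagl1, Nnat, Ndn, Dlk1, H19, Igf2, Cdkn1c and Grb10. They were taken by name from a fixed list after Ensembl identifiers had been matched to mouse symbols, and all 10 were found among the 38553 genes of the tables. Male C57BL/6 mice, with no genetic change named in the labels, ate either regular chow (the normal diet) or D12492 (the high-fat diet, from Research Diets) over 16 weeks, starting when they were weaned at the age of 3 weeks. The epididymal pad (visceral white fat), the inguinal pad (subcutaneous white fat) and the interscapular pad (brown fat) were digested with collagenase, for 20 min (white) or 40 min (brown), and the floating fat cells were taken for poly(A) RNA sequencing. Every library pooled tissue from 3 to 5 mice, and there were 14 in all: 3 per diet in each white depot and 1 per diet in the brown pad. The white libraries of a group carry the replicate numbers 0, 1 and 2, and values are given in that order. The labels call them biological replicates, so the p-values measure the spread between such pools and not between single mice. Each value is an FPKM, a fragment count divided by transcript length and library size, which allows levels to be compared between genes.

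Imprinted genes are read mainly from the copy inherited from the mother or from the copy inherited from the father, according to DNA methylation laid down in the germ line at control regions. Mest, Peg3, Plagl1, Nnat, Dlk1, Igf2 and Ndn are read from the paternal copy in mice, and H19 and Cdkn1c from the maternal copy. Grb10 is read from the maternal copy in most tissues and from the paternal copy in neurons. Many imprinted genes set growth before birth and fall in level as tissues mature, and in mouse fat Mest is known as a gene whose level rises when the pad expands. An FPKM does not tell the parental copies apart, so allele use was not measured here. In such bulk samples, fewer cells of a type and less RNA per cell cannot be told apart.

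The RefSeq table of GRCm38.p6 held start-site windows for 8 of the 10 genes, 14 windows of 300 bases in all (250 before the start and 50 after it). H19 and Cdkn1c have no entry. The windows of Mest and Peg3, which rose on the high-fat diet, and the window of Igf2 with the most CG pairs, which fell, are shown with CG pairs, the bases that imprinting methylation marks, in capitals. The first 2 lines are separate Mest starts, the third is the Peg3 start and the last is an Igf2 start, each read 5′ to 3′ on the gene's own strand.
Mest, GRCm38.p6 chr6:30737800-30738099, plus strand: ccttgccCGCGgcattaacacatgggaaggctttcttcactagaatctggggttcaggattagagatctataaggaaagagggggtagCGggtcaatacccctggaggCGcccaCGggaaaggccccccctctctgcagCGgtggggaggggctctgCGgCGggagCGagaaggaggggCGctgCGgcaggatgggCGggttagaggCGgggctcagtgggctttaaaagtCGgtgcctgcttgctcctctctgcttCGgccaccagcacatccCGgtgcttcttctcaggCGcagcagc
Mest, GRCm38.p6 chr6:30733256-30733555, plus strand: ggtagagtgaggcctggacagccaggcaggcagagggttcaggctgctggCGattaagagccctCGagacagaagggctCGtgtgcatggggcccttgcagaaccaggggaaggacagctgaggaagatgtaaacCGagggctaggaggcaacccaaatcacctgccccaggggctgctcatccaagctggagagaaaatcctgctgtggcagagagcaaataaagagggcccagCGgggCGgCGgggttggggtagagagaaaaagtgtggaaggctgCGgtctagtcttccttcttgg
Peg3, GRCm38.p6 chr7:6730370-6730669, minus strand: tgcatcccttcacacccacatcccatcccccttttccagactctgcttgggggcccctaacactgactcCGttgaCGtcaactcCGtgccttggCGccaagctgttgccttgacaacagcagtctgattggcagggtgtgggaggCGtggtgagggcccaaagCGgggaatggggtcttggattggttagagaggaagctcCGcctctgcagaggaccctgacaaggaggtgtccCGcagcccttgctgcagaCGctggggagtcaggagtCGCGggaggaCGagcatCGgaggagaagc
Igf2, GRCm38.p6 chr7:142658755-142659054, minus strand: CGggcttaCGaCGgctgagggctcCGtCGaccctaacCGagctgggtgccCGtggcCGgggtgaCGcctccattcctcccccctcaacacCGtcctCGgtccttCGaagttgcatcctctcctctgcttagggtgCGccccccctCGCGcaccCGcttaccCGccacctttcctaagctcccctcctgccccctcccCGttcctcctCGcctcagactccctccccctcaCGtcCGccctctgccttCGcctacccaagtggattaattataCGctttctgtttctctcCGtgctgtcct

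The downstream Mest window held 17 CG pairs, more than 68.6% of all 32851 RefSeq windows of this length, and the upstream one held 8. The Peg3 window held 13 and this Igf2 window 24. Over the 14 windows the count ran from 2 (the most upstream Igf2 start) to 45 (a Grb10 start), with a median of 13.5 against 7 over all windows. The letters GGGCGG, the Sp1 box, which contains a CG pair itself, stood on either strand in 8 of the 14 windows and in windows of 5 of the 8 genes (Mest, Plagl1, Igf2, Grb10 and Ndn), against 35.7% of all windows. None of the 14 held the TATA box TATAAA (13.6% of all windows), the YY1 core GCCATCTT (2.75%) or the palindrome TTGCGCAA (0.183%) on either strand. These are matches of letters and say nothing of binding or methylation in these cells. The 14 windows include 2 for nearly the same Mest start, chr6:30737800-30738099 and chr6:30737803-30738102. Both held 17 CG pairs and the Sp1 box, so this start enters the window counts and the median more than once.

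Mest also hosts a microRNA. The miR-335 hairpin lies inside the gene at chr6:30741299-30741396, and its mature arms are shown because they lie within the same gene; capitals mark the seed, bases 2 to 8.
mmu-miR-335-5p: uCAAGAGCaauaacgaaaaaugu
mmu-miR-335-3p: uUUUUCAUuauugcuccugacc
The row of the hairpin was listed at 0 in all 14 libraries, as were those of Mir483 within Igf2 and Mir675 within H19. Since the values of such short features in a poly(A) library say little of the mature microRNA, the level of miR-335 was not measured here.

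Levels of the 10 genes spanned a wide range in white adipocytes. Nnat had the highest mean over the 12 white libraries, 900.0 FPKM, above 99.6% of the 14959 genes tested, followed by Mest at 250.1 FPKM (above 98.6%). Peg3 (24.2), Plagl1 (15.3), Cdkn1c (14.7), Grb10 (12.7) and Ndn (10.6 FPKM) lay in the middle of the range. Igf2 averaged 1.37 FPKM, Dlk1 0.666 and H19 0.105. Of the 10 genes 8 were above 0 in all 14 libraries; Dlk1 was listed at 0 in 3 white libraries and H19 in 7 of the 12. A gene needed at least 0.5 FPKM in at least 3 white libraries to be tested, and 9 of the 10 passed; H19 did not. Tests used limma on log2(FPKM + 0.5) over the 12 white libraries, every log2 difference below is on that scale, and a call is a Benjamini-Hochberg adjusted p under 0.05 over all 14959 genes.

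**Figure D1:**
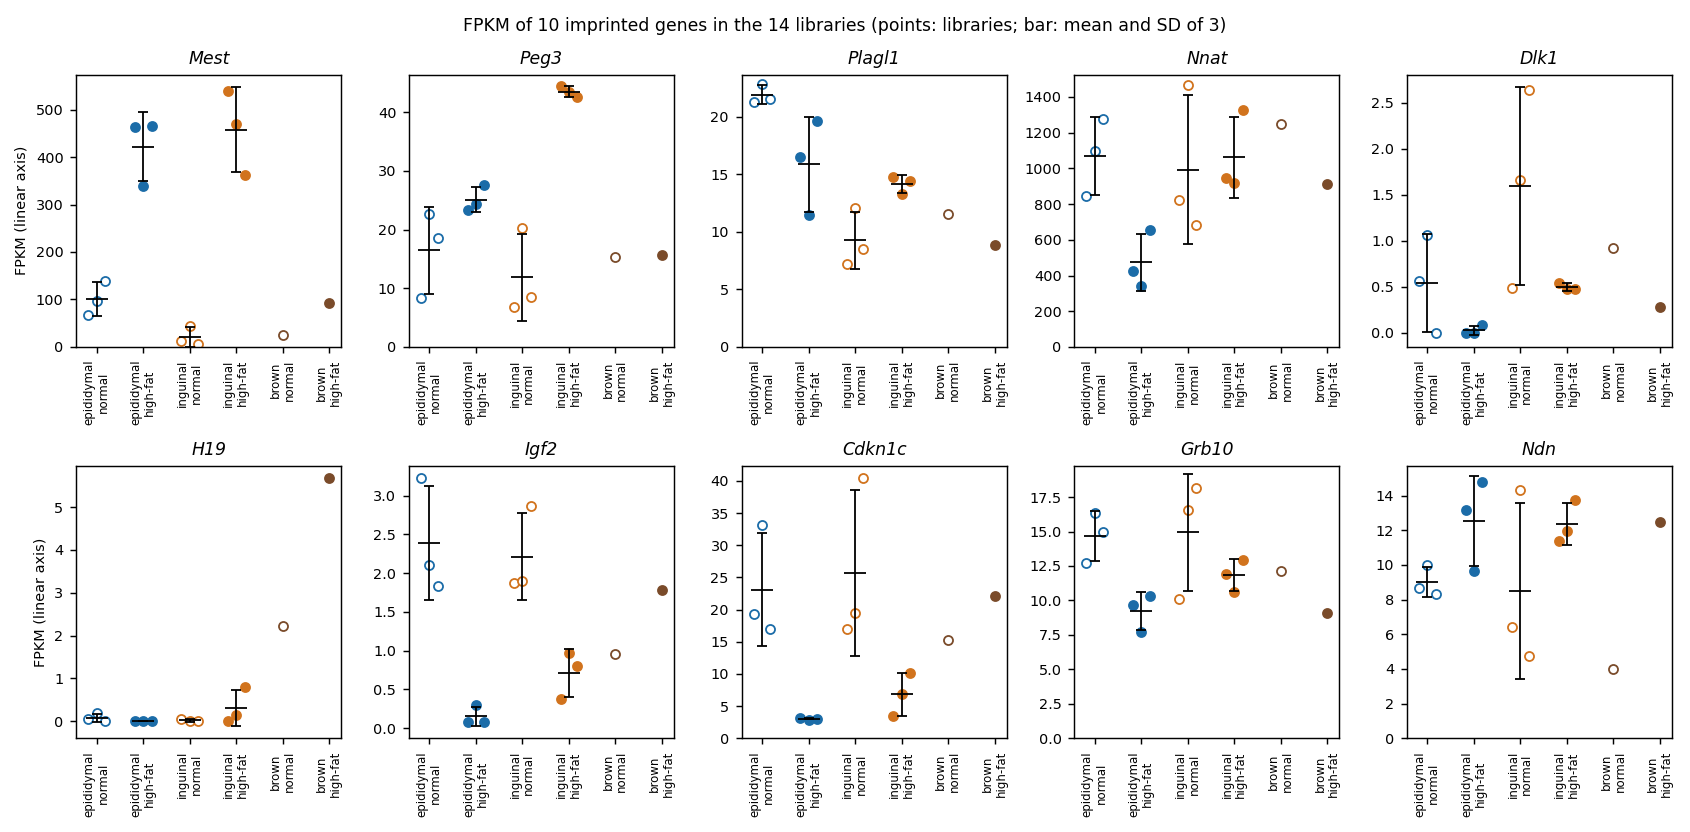
FPKM (linear axis, scaled per gene) of the 10 imprinted genes in the 14 libraries; points are libraries, the horizontal bar is the mean and the whisker the SD of 3 libraries, and brown groups have 1 library each. The 6 white high-fat libraries sit between 338 and 540 FPKM for Mest, all above the 6 normal-diet ones, while Igf2 and Cdkn1c are low in the high-fat white groups and H19 is above 1 FPKM only in brown adipocytes.

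In epididymal adipocytes 1 of the 9 tested genes rose on the high-fat diet (Mest) and 3 fell (Nnat, Igf2 and Cdkn1c); 5 were not called. Of all genes tested there, 12.2% rose and 7.35% fell, 19.5% in either direction. The libraries of both diets did not overlap for 7 of the 9, as for 42.4% of all genes. In inguinal adipocytes 2 rose (Mest and Peg3) and 2 fell (Igf2 and Cdkn1c), against 9.3% and 10.2% of all genes, again 19.5% in either direction. There the diets did not overlap for 5 of the 9, as for 33.1% of all genes. Mest, Igf2 and Cdkn1c were called in the same direction in both depots, as were 6.54% of all genes. The median log2 difference of the 9 tested genes was -0.65 in epididymal and 0.16 in inguinal adipocytes, against 0.07 and -0.01 over all genes. Some of the 9 genes rose, some fell and some were called in a single depot.

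Mest, whose product belongs to the alpha/beta-hydrolase fold family, rose most. In epididymal adipocytes it was at 67.1, 96.1 and 139 FPKM on the normal diet and at 462, 338 and 465 on the high-fat diet. In inguinal adipocytes it was at 11.7, 44.8 and 6.95 FPKM on the normal diet and at 540, 469 and 362 on the high-fat diet. Every high-fat library lay above every normal-diet library of its depot. The means were 421.8 ± 72.7 against 100.6 ± 36.0 FPKM (SD, n = 3) in epididymal adipocytes, 4.19-fold higher, with a log2 difference of 2.11 (SE 0.52, limma adjusted p = 0.0131). Inguinal means were 457.0 ± 89.4 against 21.1 ± 20.6 FPKM (SD, n = 3), 21.6-fold higher, with a log2 difference of 4.82 (SE 0.52, limma adjusted p = 0.000217). That difference ran from 4.26 to 5.57 with 1 library left out at a time, the higher end being without inguinal normal-diet replicate 1. Averaged over the depots the log2 difference was 3.46, and an exact two-sided permutation of the diet labels within depots (400 arrangements) gave p = 0.005, the smallest it can give. The epididymal call was lost in 3 of 23 alternative fits. Without a filter the limma adjusted p was 0.0882. Without normal-diet replicate 0 the log2 difference was 1.85 (limma adjusted p = 0.0574), and without high-fat replicate 0 it was 2.04 (adjusted p = 0.0506).

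The Mest rise was larger in inguinal than in epididymal adipocytes. The diet effect in epididymal minus that in inguinal adipocytes was -2.71 on the log2 scale (SE 0.73, limma adjusted p = 0.0452), the only call among the 9 genes for this difference, where 2.42% of all genes were called in this direction and 7.22% in either. On the normal diet Mest was 2.60 higher on the log2 scale in epididymal than in inguinal adipocytes (SE 0.52, limma adjusted p = 0.0153), and on the high-fat diet the depots differed by -0.11 (SE 0.52, adjusted p = 0.949) with overlapping libraries. The normal-diet depot call was lost in 4 of 23 alternative fits: without a filter (limma adjusted p = 0.11), with only the compared groups fitted (0.181), without epididymal normal-diet replicate 2 (0.0702), and without inguinal normal-diet replicates 0 and 2, where it was 1.10 (adjusted p = 0.16). Without inguinal normal-diet replicate 1 it was 3.35. The difference between the diet effects was no longer called in 14 of 22 alternative fits, among them 11 of the 12 that leave out a library and the fit with the replicate number as a block (limma adjusted p = 0.0565). In the other fit that leaves out a library, without inguinal normal-diet replicate 1, it was -3.46. Without inguinal normal-diet replicates 0 and 2 it was -1.21 (limma adjusted p = 0.175), while the inguinal diet effect was 3.32 (adjusted p = 0.00154).

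Those 2 libraries also carried the markers of another cell type. The summed FPKM of 11 lymphocyte markers was 627, 81.1 and 918 in the inguinal normal-diet libraries and between 9.08 and 29.6 in the other 9 white ones, and 11 of 11 markers fell with the high-fat diet in the inguinal pad. None of the 11 was at 0 throughout a white group. White adipocyte markers (7 genes) summed to 9975, 25744 and 14781 FPKM in the same 3 libraries, and 15157 to 28289 FPKM in the other white ones. Mitochondrial messenger RNAs took 52.1, 20.6 and 60.7% of their protein-coding FPKM, against 26.9 to 35.2% in the inguinal high-fat libraries. With libraries scaled to nuclear protein-coding FPKM instead, the inguinal diet difference was 4.77 for Mest (limma adjusted p = 0.000107) and 1.94 for Peg3 (adjusted p = 0.00152). Mest was highest in replicate 1, the inguinal normal-diet library with the fewest lymphocyte markers and the most adipocyte markers. The part of this mixture in the Mest and Peg3 values was not tested beyond leaving those libraries out.

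Copg2, which encodes a subunit of the COPI vesicle coat and is imprinted in mice, lies next to Mest at chr6:30747554-30896815 and shares 913 bases with its end (Mest is at chr6:30733506-30748466, GRCm38.p6). It was at 29.9, 37.8 and 46.9 FPKM in normal-diet and 120, 108 and 126 FPKM in high-fat epididymal adipocytes, and at 16.0, 22.8 and 12.97 against 131, 124 and 99.8 FPKM in inguinal ones. The groups did not overlap, and Copg2 rose by 1.64 (SE 0.23, limma adjusted p = 0.000371) and 2.77 (SE 0.23, adjusted p = 3.19e-05) on the log2 scale. Klf14, an imprinted transcription factor gene of the same region (chr6:30956021-30958990) known from fat studies in mice, rose from 1.02 to 5.85 and from 0.871 to 5.21 FPKM, by 2.09 and 2.07 on the log2 scale (limma adjusted p = 0.00021 and 0.000553). The Copg2 to Mest ratio was 0.339 to 0.446 and 0.260 to 0.321 in normal-diet and high-fat epididymal libraries, and 0.509 to 1.86 and 0.243 to 0.276 in inguinal ones. Because the strand setting is not given in the sources used here, fragments from the shared 913 bases cannot be told apart between Mest and Copg2.

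Peg3 encodes a zinc-finger protein read from the paternal copy. Its epididymal values were 8.30, 22.6 and 18.5 FPKM on the normal diet and 23.4, 24.4 and 27.5 on the high-fat diet. Inguinal values were 6.73, 20.3 and 8.54 FPKM against 44.4, 43.5 and 42.6. Peg3 in high-fat libraries lay above that in normal-diet ones in epididymal and in inguinal adipocytes, by a narrow margin in the epididymal pad, and the inguinal high-fat libraries were the highest of the 14. Peg3 rose in inguinal adipocytes by 1.99 on the log2 scale (SE 0.39, limma adjusted p = 0.00518) and its epididymal difference, 0.70 (SE 0.39, adjusted p = 0.245), was not called; the 2 effects differed by -1.29 (SE 0.55, adjusted p = 0.188). Without inguinal normal-diet replicates 0 and 2, the libraries rich in lymphocyte markers, the inguinal difference was 1.08 (limma adjusted p = 0.171) and was lost. In the order of group means, inguinal and then epididymal high-fat adipocytes stood apart at the top, and the other 4 groups, 11.8 to 16.5 FPKM, overlapped in part.

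Plagl1, also called Zac1, encodes a zinc-finger transcription factor placed at the centre of an imprinted gene network in mice. It was at 21.3, 22.8 and 21.5 FPKM in normal-diet and 16.5, 11.5 and 19.6 FPKM in high-fat epididymal adipocytes. In inguinal adipocytes it was at 7.21, 12.02 and 8.54 FPKM on the normal diet and at 14.7, 13.2 and 14.4 on the high-fat diet. The groups did not overlap in either depot but lay in opposite order, lower on the high-fat diet in epididymal and higher in inguinal adipocytes. Opposite orders without overlap, whichever depot was the lower, were found for 2.6% of all genes tested. Neither diet difference was called (log2 -0.49, limma adjusted p = 0.155, and 0.61, adjusted p = 0.0729), nor was the difference between them (-1.10, SE 0.31, adjusted p = 0.0557). That last value was called in 7 of 22 alternative fits, 4 of them other scalings or weights, with adjusted p from 0.00978 to 0.26 over all 22. On the normal diet Plagl1 was higher in epididymal than in inguinal adipocytes by 1.23 on the log2 scale (SE 0.22, limma adjusted p = 0.0098). This call was lost in 3 of 23 alternative fits: without a filter (limma adjusted p = 0.0507), with only the compared groups fitted (0.136), and without inguinal normal-diet replicates 0 and 2 (0.84, adjusted p = 0.13).

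Nnat, neuronatin, a small membrane protein of the endoplasmic reticulum that acts on calcium pumping and is known from nerve and pancreas, was the most abundant of the 10. Epididymal libraries held 843, 1095 and 1277 FPKM on the normal diet and 425, 342 and 653 FPKM on the high-fat diet. Inguinal libraries held 823, 1468 and 685 FPKM against 948, 918 and 1325 FPKM. The epididymal high-fat libraries were the lowest 3 of the 14, and the other groups overlapped. Nnat fell in epididymal adipocytes by 1.21 on the log2 scale (SE 0.33, limma adjusted p = 0.024), while the inguinal difference was 0.16 (SE 0.33, adjusted p = 0.775) and the 2 effects differed by -1.37 (SE 0.47, adjusted p = 0.105). The epididymal call was lost in 5 of 23 alternative fits, among them that without a filter (limma adjusted p = 0.115). The others lacked epididymal normal-diet replicate 1 or 2 or high-fat replicate 0 or 1. In those the difference lay between -1.18 and -1.003 (limma adjusted p from 0.0681 to 0.111). Nnat lies wholly inside Blcap (2448 bases on chromosome 2), whose mean was 57.9 to 76.2 FPKM in the white groups and whose epididymal difference, -0.39 (limma adjusted p = 0.377), was not called.

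Ndn, necdin, a MAGE-family protein that binds E2F factors and holds back cell division, was at 8.67, 10.0 and 8.35 FPKM in normal-diet and 13.2, 9.66 and 14.8 FPKM in high-fat epididymal adipocytes. Inguinal values were 6.43, 14.3 and 4.75 FPKM against 11.4, 11.9 and 13.7. Libraries overlapped in both depots, with log2 differences of 0.44 (SE 0.32, limma adjusted p = 0.39) and 0.66 (SE 0.32, adjusted p = 0.167). The inguinal normal-diet spread again followed the same libraries, replicate 1 being the highest.

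The fetal growth factor Igf2, which acts through the IGF1 and insulin receptors, fell in both white depots. Its values were 3.23, 2.11 and 1.83 FPKM in normal-diet and 0.0764, 0.295 and 0.0834 FPKM in high-fat epididymal adipocytes. Inguinal values were 1.88, 1.90 and 2.86 FPKM against 0.370, 0.963 and 0.802. No high-fat library reached a normal-diet one in either depot, and the epididymal high-fat libraries were the lowest of all. The means were 2.39 ± 0.74 against 0.152 ± 0.124 FPKM (SD, n = 3) in epididymal adipocytes, with a log2 difference of -2.13 (SE 0.30, limma adjusted p = 0.00047). Inguinal means were 2.21 ± 0.56 against 0.712 ± 0.306 FPKM (SD, n = 3), a log2 difference of -1.18 (SE 0.30, limma adjusted p = 0.019). At such levels the pseudocount of 0.5 understates the change: with 0.1 the epididymal difference was -3.37.

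Cdkn1c encodes p57, an inhibitor of cyclin-dependent kinases that restrains growth. It was at 19.3, 33.1 and 17.0 FPKM in normal-diet and 3.10, 2.92 and 3.02 FPKM in high-fat epididymal adipocytes, a 7.67-fold difference of means. In inguinal adipocytes it was at 17.0, 19.4 and 40.5 FPKM against 3.50, 6.87 and 10.1, a 3.75-fold difference. The groups were well apart in both depots, and the 3 epididymal high-fat libraries were almost equal. Cdkn1c fell by 2.69 on the log2 scale (SE 0.39, limma adjusted p = 0.000545) in epididymal and by 1.84 (SE 0.39, adjusted p = 0.00793) in inguinal adipocytes. Between depots the difference of its diet effects was not called (-0.85, SE 0.55, limma adjusted p = 0.41), nor was that of Igf2 (-0.96, SE 0.43, adjusted p = 0.214). The inguinal call was lost in 5 of 23 alternative fits for Igf2 and in 3 of 23 for Cdkn1c. Without a filter the limma adjusted p was 0.0665 for Igf2 and 0.0555 for Cdkn1c. With only the compared groups fitted it was 0.0825 and 0.0642. Both counts include the fit without inguinal normal-diet replicates 0 and 2. There the differences were -1.02 for Igf2 and -1.55 for Cdkn1c. The Igf2 call was also lost without inguinal normal-diet replicate 2 (limma adjusted p = 0.0603) or high-fat replicate 0 (adjusted p = 0.0755).

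The sums of endothelial and of erythroid markers were lower on the high-fat diet in both white depots, as were Igf2 and Cdkn1c. The summed FPKM of 9 endothelial markers (Pecam1, Cdh5, Kdr, Tek, Emcn, Cldn5, Esam, Vwf and Flt1) was 437 to 515 in normal-diet and 41.0 to 78.5 in high-fat epididymal adipocytes, and 8 of 9 markers fell. In inguinal adipocytes the sum was 313 to 523 against 223 to 313, and 2 of 9 fell. In the brown libraries the endothelial sum was higher on the high-fat diet, as were both genes. The sum was 117 and 351, normal diet first, beside 15.3 and 22.2 FPKM of Cdkn1c and 0.955 and 1.78 FPKM of Igf2. This was not particular to endothelial markers. Higher brown sums on the high-fat diet were also found for fibroblast (375 and 605), macrophage (12.1 and 188), mural (55.1 and 155) and erythroid markers (848 and 994). White adipocyte (22297 and 14053) and mesothelial sums (0.690 and 0.382) were lower. None of the 9 endothelial markers was at 0 in any group. Fibroblast and preadipocyte markers (12 genes) summed to 832 to 1403 against 366 to 471 FPKM in epididymal and 752 to 2168 against 864 to 1089 FPKM in inguinal adipocytes, with 6 of 12 and 5 of 12 falling and 1 rising in the inguinal pad. The 5 erythroid markers summed to 1098 to 3483 against 273 to 419 FPKM in epididymal adipocytes, with 5 of 5 falling. In inguinal adipocytes they summed to 316 to 4849 against 63.2 to 149.9 FPKM, with 4 of 5 falling. On the high-fat diet the erythroid sum was lower in inguinal than in epididymal adipocytes. Igf2 and Cdkn1c were lower in epididymal ones on that diet, by differences that were not called (limma adjusted p = 0.0959 and 0.166). The 12 macrophage markers went the other way in the epididymal pad, from 473 to 975 up to 1494 to 2611 FPKM, with 6 rising and 1 falling, and summed to 200.1 to 569 against 279.8 to 462 FPKM in the inguinal pad, with 3 rising. No erythroid or macrophage marker was at 0 throughout a white group. The part of these cells in the Igf2 and Cdkn1c values was not tested.

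**Figure D2:**
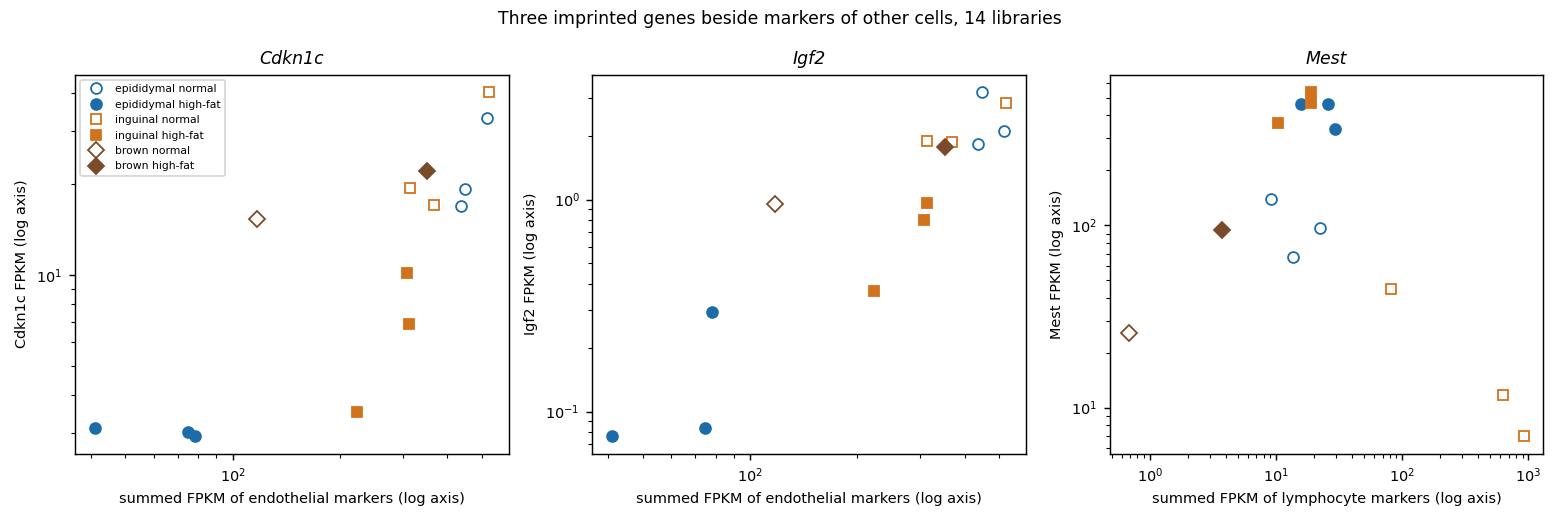
FPKM of Cdkn1c and Igf2 against the summed FPKM of 9 endothelial markers, and of Mest against that of 11 lymphocyte markers, in the 14 libraries (points; all axes log). The 3 epididymal high-fat libraries, at 41.0 to 78.5 endothelial FPKM, have the lowest Cdkn1c and Igf2, and the 2 inguinal normal-diet libraries with 627 and 918 lymphocyte FPKM have the lowest Mest.

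Grb10, an adaptor protein that damps signalling from the insulin and IGF1 receptors, was at 12.7, 16.3 and 15.0 FPKM in normal-diet and 9.69, 7.68 and 10.3 FPKM in high-fat epididymal adipocytes. Inguinal values were 10.1, 16.6 and 18.1 FPKM against 11.9, 10.6 and 12.9. The epididymal groups did not overlap and the inguinal ones did. Neither difference was called (log2 -0.65, SE 0.22, limma adjusted p = 0.0645, and -0.29, adjusted p = 0.398), but the epididymal one was called in 9 of 23 alternative fits, with adjusted p from 0.00461 to 0.217. Averaged over both depots Grb10 fell by 0.47 (SE 0.16, limma adjusted p = 0.0435), one of 5 members called in that comparison; Mest and Peg3 rose and Igf2, Cdkn1c and Grb10 fell, where 16.4% of all genes rose and 13.5% fell (29.9% either way). The Grb10 call was lost in 11 of 22 alternative fits.

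Dlk1, the preadipocyte factor Pref-1, whose shed form holds back fat cell formation, was near the limit of the tables. Its values were 0.562, 1.06 and 0 FPKM in normal-diet and 0, 0 and 0.0819 FPKM in high-fat epididymal adipocytes, and 0.489, 1.67 and 2.64 against 0.544, 0.476 and 0.476 FPKM in inguinal ones. Libraries overlapped in both depots, and the differences of -0.84 and -0.92 were not called (limma adjusted p = 0.248 and 0.186). H19, the growth-restraining noncoding RNA that shares its control region with Igf2, was at 0.0627, 0.188 and 0 FPKM in normal-diet epididymal adipocytes and listed at 0 in the 3 high-fat ones. Inguinal values were 0.0656, 0 and 0 FPKM on the normal diet and 0, 0.152 and 0.794 on the high-fat diet. An exact 0 in such a table can be a failed estimate, so the libraries are given as listed and no fold is stated. H19 lies 72622 bases from Igf2 on chromosome 7, which holds 5 of the 10 genes (Peg3, Ndn, H19, Igf2 and Cdkn1c).

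**Figure D3:**
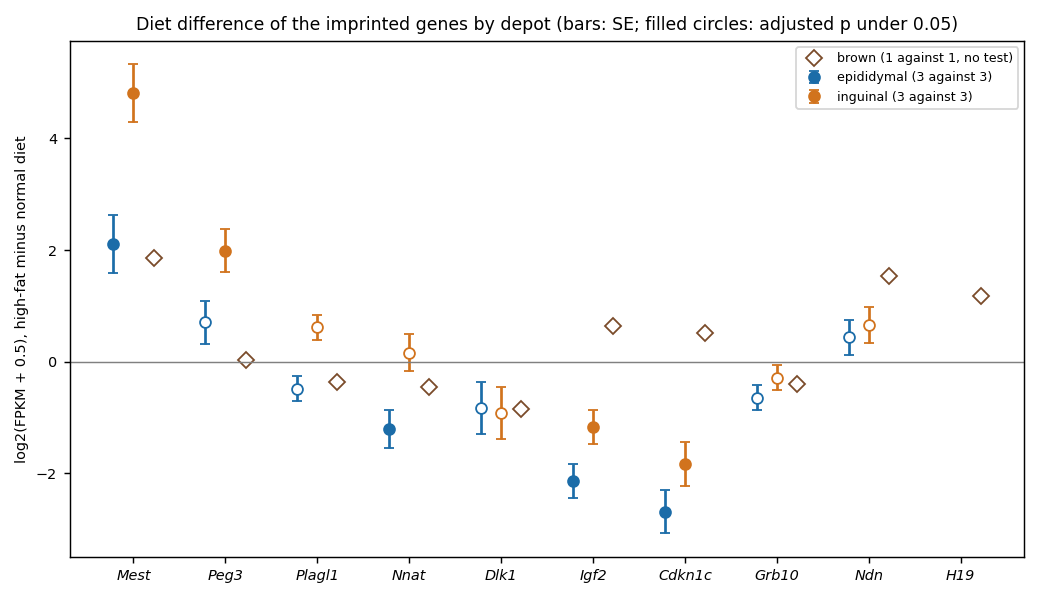
Log2 difference between the high-fat and the normal diet for each gene on the log2(FPKM + 0.5) scale, in epididymal (blue) and inguinal (orange) adipocytes with the SE from limma, filled where the adjusted p is under 0.05, and in brown adipocytes (diamonds, 1 library per diet, no error). Mest is highest at 2.11 and 4.82 in the white depots, Igf2 and Cdkn1c are below 0 in both white depots and above 0 in brown, and H19 has a brown value only.

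Between the depots, 2 of the 9 genes were called on the normal diet, both higher in epididymal adipocytes (Mest and Plagl1, values above) and both lost without inguinal normal-diet replicates 0 and 2, where 2.36% of all genes were called higher and 6.51% either way. On the high-fat diet 1 was called, Nnat, lower in epididymal adipocytes by 1.20 on the log2 scale (SE 0.33, limma adjusted p = 0.0393), where 3.53% of all genes were called lower and 10.6% either way. On that diet 6 genes (Peg3, Nnat, Dlk1, Igf2, Cdkn1c and Grb10) had every epididymal library below every inguinal one, an order found for 15.2% of all genes. Averaged over the diets, Mest (1.24, SE 0.36, limma adjusted p = 0.0484) and Plagl1 (0.68, SE 0.16, adjusted p = 0.0175) were higher in epididymal adipocytes, against 6.31% of all genes called higher and 11.0% either way; the Mest call was lost in 16 of 22 alternative fits and the Nnat call in 8 of 23. These depot comparisons and the diet comparisons share the same libraries.

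Brown adipocytes gave 1 library per diet, so their values have no replicate check. Ucp1, the uncoupling protein that marks brown fat, was at 121 and 503 FPKM in them and at most 36.1 FPKM in a white library, and Adipoq was between 919 and 2536 FPKM in all 14. Mest was at 25.6 FPKM on the normal and 93.6 on the high-fat diet, a log2 difference of 1.85; the high-fat value lay below all 6 white high-fat libraries. Ndn was at 3.98 and 12.5 FPKM (1.53) and H19 at 2.24 and 5.67 FPKM (1.17). These 3 were past a 2-fold difference, all higher on the high-fat diet, as were 11.1% of the 11518 genes with a mean of at least 1 FPKM in brown adipocytes, and no member was past it in the other direction on the log2(FPKM + 0.5) scale, against 6.49%. Dlk1 was 3.25-fold lower by FPKM alone and past 2-fold with a pseudocount of 0.1 (log2 -1.41). H19 in brown adipocytes was above every white library on the same diet. Igf2 (0.955 and 1.78 FPKM) and Cdkn1c (15.3 and 22.2) were higher in the high-fat brown library, while both fell in white adipocytes. On the normal diet the brown value of each lay below all 6 white libraries, and on the high-fat diet above all 6. Peg3 (15.4 and 15.7 FPKM), Plagl1 (11.5 and 8.81), Nnat (1246 and 911), Grb10 (12.1 and 9.06) and Dlk1 (0.918 and 0.283) differed by less than 2-fold on this scale. The brown libraries also carried markers of other cells. Skeletal muscle markers (7 genes) summed to 49.8 and 129.0 FPKM, normal diet first, and to at most 34.0 FPKM in a white library. Schwann cell and neuron markers (8 genes) summed to 3.00 and 36.7 FPKM, with 4 and 3 of them at 0. The part of such cells in the brown values, those of H19 and Ndn among them, was not tested.

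Over the 12 white libraries some pairs of the genes varied together and others in opposite directions, and no grouping was computed. As a description, Pearson's r of log2(FPKM + 0.5) was 0.87 between Mest and Peg3 and 0.95 between Igf2 and Cdkn1c, while Mest against Cdkn1c gave -0.81. After group means were taken out, these were 0.77, 0.54 and -0.47, so part of each r comes from the groups. Values of 1 library share its depth, cell mixture and mitochondrial content, whose part in these r was not tested. Within groups Mest also followed Ndn (0.84) and Nnat (0.74), while Mest against Nnat gave -0.18 over all 12 libraries with the groups left in.

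**Figure D4:**
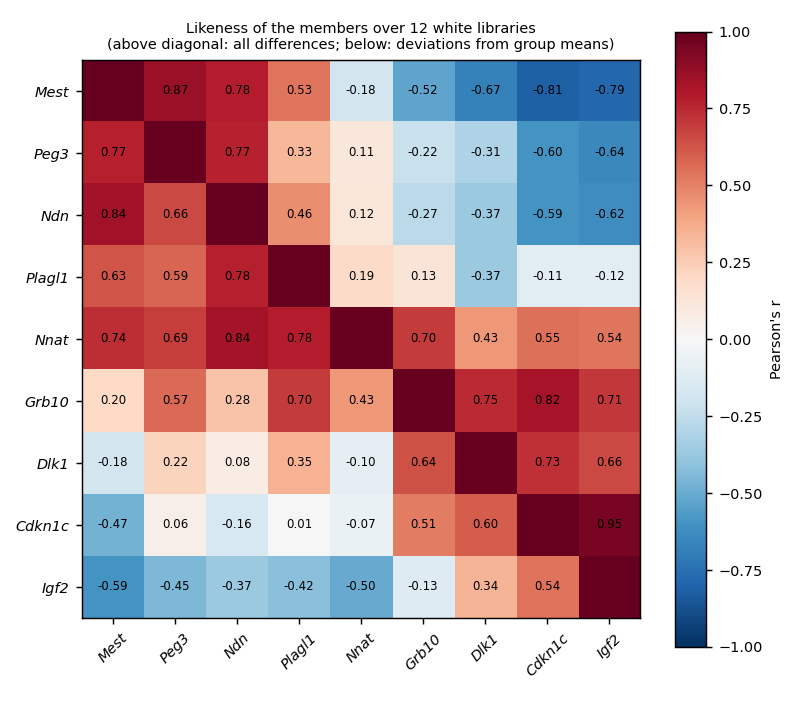
Pearson's r between the 9 tested genes over the 12 white libraries, above the diagonal for log2(FPKM + 0.5) and below it for deviations from the group means. Igf2 and Cdkn1c (0.95) and Mest and Peg3 (0.87) are close above the diagonal; below it Mest, Peg3, Ndn, Plagl1 and Nnat are positively related, from 0.59 to 0.84.

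Among all tested genes with a mean of at least 2 FPKM, the 5 most like Mest over the 12 white libraries were Rnf11 (r = 0.985), Daam1, Slc16a12, Vgll3 and Copg2 (0.982). Rnf11, a RING-finger protein gene, went from 84.9 to 151 FPKM in epididymal and from 54.7 to 138 FPKM in inguinal means, far less in proportion than Mest. Vgll3, a transcription cofactor gene, went from 6.70 to 21.9 and from 2.74 to 17.5 FPKM. Ctcflos, Rnd3 and Acads were most like Peg3 (0.967 to 0.976), and Aldh1a1, C6 and Tdrp most like Plagl1 (0.912 to 0.930). Ces1f, Chdh and Gm15417 led for Nnat (0.950 to 0.959), and Hoga1, Jag1 and Fitm2 for Ndn (0.956 to 0.978). The closest to Igf2 were Adcy4, Mcc and Tpst1 (0.970 to 0.971) and to Cdkn1c Pkp4, Prag1 and Npr1 (0.967 to 0.979). Grb10 was closest to Zrsr1, itself imprinted in mice (0.910), then Vnn3 and Hoxb4, and Dlk1 to 1810032O08Rik, Sema4a and Gm6969 (0.934 to 0.955).

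Of 58 other imprinted genes listed, 55 were found and 37 tested. In epididymal adipocytes 8 rose, 3 fell and 26 were not called (median log2 difference 0.17), where 12.2% of all genes rose and 7.35% fell. In inguinal adipocytes 9 rose, 1 fell and 27 were not called (0.32), where 9.3% of all genes rose and 10.2% fell. The medians over all genes were 0.07 and -0.01. Of the 37 other imprinted genes 6 were called in the same direction in both depots, against 6.54% of all genes. Atp10a, Copg2, Klf14, Pon2 and Tfpi2 rose and Dcn fell. Tfpi2, a protease inhibitor gene, went from 1.11 to 8.97 FPKM in epididymal means (log2 2.56, limma adjusted p = 0.000147), and its inguinal means were 1.05 and 6.27 FPKM (2.17, adjusted p = 0.00103). Dcn, decorin, also one of the fibroblast markers, went from 480 to 63.0 and from 227 to 56.1 FPKM. Airn, the antisense RNA of Igf2r, fell in epididymal adipocytes alone by call (6.88 to 1.35 FPKM, log2 -1.92, limma adjusted p = 0.00444) and its 2 diet effects differed (-2.11, adjusted p = 0.039). Meg3, the noncoding neighbour of Dlk1, went from 4.81 to 2.37 and from 5.36 to 2.65 FPKM and was not called (limma adjusted p = 0.173 and 0.194).

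**Figure D5:**
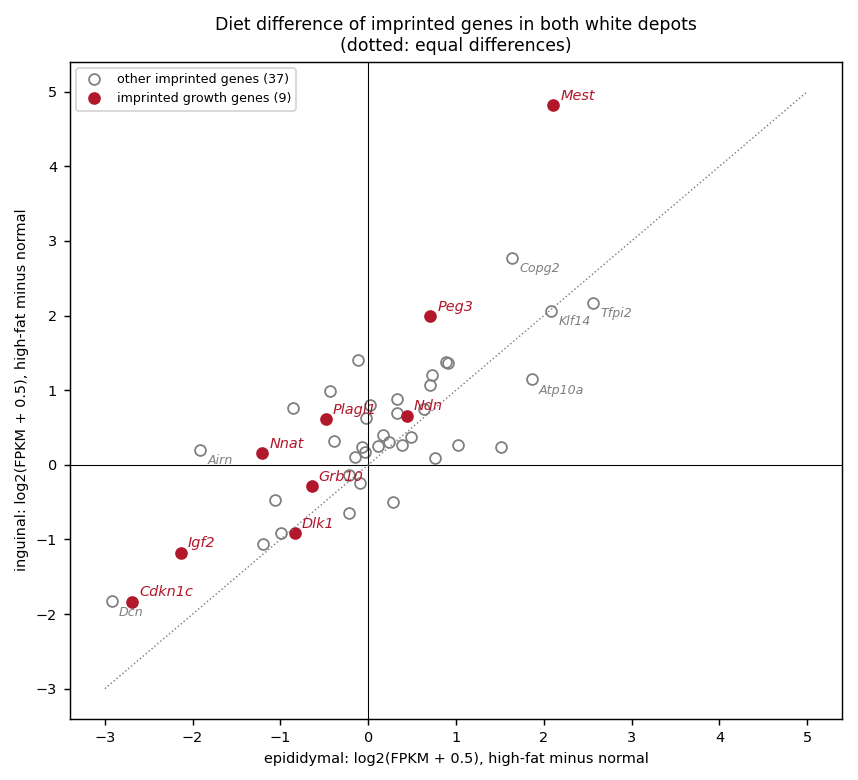
Diet difference (log2(FPKM + 0.5), high-fat minus normal) in epididymal (horizontal) against inguinal adipocytes (vertical) for the 9 tested growth genes (red) and 37 other imprinted genes (grey); the dotted line marks equal differences. Mest (2.11, 4.82) stands at the top right with Copg2 (1.64, 2.77) nearest along the vertical axis, and Cdkn1c (-2.69, -1.84) and Igf2 (-2.13, -1.18) lie at the lower left near Dcn.

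The partners of Igf2 and Grb10 in insulin and IGF signalling moved both ways. Of 21 listed genes 16 were tested. In epididymal adipocytes 5 rose and 2 fell, against 12.2% and 7.35% of all genes. In inguinal adipocytes 3 rose and 3 fell, against 9.3% and 10.2% of all genes. Igf1r, the receptor that Igf2 activates, fell in both depots (2.60 to 1.14 and 2.32 to 1.11 FPKM, log2 -0.91 and -0.81, limma adjusted p = 0.0101 and 0.0205). Igfals, which holds IGF in serum complexes, rose from 15.6 to 69.9 and from 19.8 to 62.6 FPKM (log2 2.104 and 1.78, limma adjusted p = 0.000934 and 0.00416). Grb14, a relative of Grb10, rose in inguinal adipocytes from 14.8 to 74.2 FPKM (log2 2.35, limma adjusted p = 0.000243), and Igfbp7, which binds IGF and insulin, fell in both (log2 -1.51 and -0.93, adjusted p = 0.00047 and 0.0112). Igf2r, the imprinted receptor that clears Igf2, rose in epididymal adipocytes from 13.6 to 27.8 FPKM (log2 1.02, limma adjusted p = 0.00148) and was at 11.4 and 13.8 FPKM in inguinal ones (0.27, adjusted p = 0.292). In the epididymal high-fat libraries macrophage markers were higher and endothelial markers lower. Inguinal normal-diet replicates 0 and 2 were rich in lymphocyte markers (sums above). The part of these cells in the differences of this paragraph was not tested.

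Other cyclin-dependent kinase inhibitors went both ways. Of 9 inhibitors and D-type cyclins, 3 rose and 1 fell in epididymal adipocytes, against 12.2% and 7.35% of all genes. In inguinal adipocytes 1 rose and 1 fell, against 9.3% and 10.2% of all genes. Cdkn1b, which encodes p27, fell in both depots (13.9 to 5.45 and 26.5 to 10.3 FPKM, log2 -1.29 and -1.28, limma adjusted p = 0.00595 and 0.00779). Cdkn2b rose in both (log2 0.90 and 1.39, limma adjusted p = 0.0208 and 0.00279), and Cdkn1a, p21, rose in epididymal adipocytes (13.2 to 59.4 FPKM, log2 2.42, adjusted p = 0.0079). In addition 5 of 5 proliferation markers rose in epididymal adipocytes, from a summed 3.07 to 5.17 FPKM to 27.4 to 46.3, and none in inguinal ones. Macrophage markers rose in the same epididymal libraries (6 of 12, sums above), and their part in these epididymal rises was not tested. The inguinal differences include normal-diet replicates 0 and 2, which carried lymphocyte markers, and the part of those cells was not tested either.

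Genes known to accompany Mest in fat expansion were all tested, 7 of 7. On the high-fat diet 4 rose in epididymal and 7 in inguinal adipocytes, with none lower (median log2 difference 1.34 and 2.00). The shares of all genes that rose were 12.2% in epididymal and 9.3% in inguinal adipocytes. Sfrp5, a secreted Wnt antagonist, went from 23.5 to 242 and from 6.54 to 136 FPKM (log2 3.44 and 4.66, limma adjusted p = 0.000824 and 0.000298), the same order of depots as Mest. Npr3, the natriuretic peptide clearance receptor, rose in inguinal adipocytes from 55.4 to 297 FPKM (log2 2.43, limma adjusted p = 1.39e-05), and Bmp3 in epididymal ones from 4.08 to 18.4 FPKM (2.09, adjusted p = 0.000132). This list was chosen with such results known.

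Among 8 partners of Dlk1 and Notch signalling, 1 rose and 4 fell in epididymal and 1 fell in inguinal adipocytes. Of all genes, 12.2% rose and 7.35% fell in epididymal adipocytes, and 9.3% rose and 10.2% fell in inguinal ones. Adam17, the protease that sheds Dlk1, rose in epididymal adipocytes (9.88 to 16.6 FPKM, log2 0.73, limma adjusted p = 0.00828), while the endothelial receptor Notch4 fell from 12.8 to 1.29 FPKM (log2 -2.89, adjusted p = 3.17e-06). Of 5 listed calcium pumps, on which Nnat is thought to act, and their small regulators, 2 pumps were tested. Both rose in epididymal adipocytes and neither was called in inguinal ones. Atp2a2 went from 36.1 to 56.6 FPKM (log2 0.65, limma adjusted p = 0.0472) and Atp2a3 from 10.3 to 34.5 (1.71, adjusted p = 0.029). Of 5 partners of necdin, E2f1 rose in epididymal adipocytes (2.36 to 8.46 FPKM, log2 1.67, limma adjusted p = 0.000277). In inguinal ones Maged1 rose (log2 1.05, limma adjusted p = 0.027) and Trp53 fell (-0.96, adjusted p = 0.0211). Macrophage markers rose and endothelial markers fell in the epididymal high-fat libraries (sums above). Their part in the epididymal differences of this paragraph was not tested. Nor was the part of lymphocytes, whose markers were high in inguinal normal-diet replicates 0 and 2, in the inguinal ones.

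Mitochondrial messenger RNAs took 20.6 to 66.7% of the protein-coding FPKM in white libraries, 40.3 to 66.7% in normal-diet and 26.9 to 37.0% in high-fat epididymal ones (inguinal values above). Scaling each library instead to a common total of nuclear protein-coding FPKM moved the median of all genes from 0.07 to -0.09 in the epididymal diet comparison and its split from 1818 higher and 1100 lower to 1395 and 1580. Relative to that shift the members kept their calls: Mest was at 1.91 (limma adjusted p = 0.0141), Nnat at -1.41 (adjusted p = 0.00353), Igf2 at -2.19 (adjusted p = 0.000804) and Cdkn1c at -2.86 (adjusted p = 0.000238), with Plagl1 (-0.67, adjusted p = 0.0386) and Grb10 (-0.83, adjusted p = 0.00864) called in addition.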

How the data were processed

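Gene values of 14 libraries were used as deposited. The authors' values are FPKM per gene, and the submitters' processing notes name the mm10 build, TopHat2 2.0.9 and Cuffdiff 2.1.1. Annotation, strand setting and scaling are not given in the sources used here. Their unit was taken from these tools, since the file headers name no unit. Low values showed no whole-read steps, so depth is unknown and precision rests on the spread between libraries.

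Of 38553 identifiers 36638 matched a symbol. Genes with at least 0.5 FPKM in at least 3 of the 12 white libraries (14959) entered a linear model of 4 group means (8 residual degrees of freedom) in limma 3.58.1 (R 4.3.3; moderated with a trend) on log2(FPKM + 0.5), two-sided, with Benjamini-Hochberg adjustment. The step was tested on simulated data. The scale understates changes of low genes. Mest was also tested by an exact permutation within depots. Brown libraries (1 per diet) entered no test. Coordinates, start windows and microRNAs are RefSeq's on GRCm38.p6.

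The members and all lists were chosen with earlier results of these data known. Named genes were the members, up to 3 called genes each way per list and diet contrast, and the genes most like each member; Meg3, Igf2r, Pon2 and Blcap, and Klf14 and Copg2 as neighbours of Mest, were chosen after their values were seen. Each member's alternatives were array weights, quantile normalization, TMM factors (own code), rescaling to a common total of nuclear protein-coding FPKM, a pseudocount of 0.1 or 1, a 2 FPKM filter or none, a block for replicate number, a fit of the compared groups alone, each library left out, and inguinal normal-diet replicates 0 and 2 left out. The meaning of the shared replicate numbers is not in the labels. Same-numbered libraries' deviations from their group means correlated at 0.184, 0.111 and 0.146 between the high-fat depots. Between the epididymal diets they correlated at 0.18, 0.083 and 0.16. In every comparison but that of the high-fat depots at least 1 correlation was under 0.1. Libraries of different numbers were not compared, so whether the numbers pair libraries cannot be told from these values.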

Additional observations from a re-analysis of the deposited data

Results flagged for a closer look

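In the main fit the diet effect on Mest differed between the white depots by a test of the difference itself. That call was lost in 14 of 22 alternative fits. The epididymal minus inguinal value was -2.71 on the log2(FPKM + 0.5) scale (SE 0.73, limma adjusted p = 0.0452), with Mest higher on the high-fat diet in every library of both depots and the larger rise in inguinal adipocytes. It was -1.21 (limma adjusted p = 0.175) without the 2 inguinal normal-diet libraries that carried 627 and 918 summed FPKM of lymphocyte markers, and its adjusted p ranged from 0.000409 to 0.23 over 22 alternatives. Whether those libraries set the difference was not tested further.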

How the results depend on the processing

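Depth is unknown in FPKM, groups hold 3 libraries, and inguinal normal-diet replicates 0 and 2 carry lymphocyte markers. Over 1415 recomputed member differences 1235 kept their direction and their side of the threshold. Of the others, 75 kept the direction but were no longer called, 52 became called and 53 turned direction. Refits without a library of another group, without a filter or with the replicate block left a log2 difference unchanged by design. The epididymal Mest difference stayed at 2.109 without inguinal normal-diet replicate 0 (limma adjusted p = 0.0149), without a filter (0.0882) and with the block (0.018). Such refits test the call and not the direction, and they are included in the 1235 and in the counts of alternative fits above. The calls of Mest in inguinal adipocytes, of Igf2 and Cdkn1c in epididymal adipocytes, and of Mest, Peg3, Igf2 and Cdkn1c averaged over depots held under every alternative run. The permutation p of Mest, 0.005, is the smallest that design gives, so its alternatives say nothing about stability. For the changes that follow, the cause was not tested.

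Counts of called genes are given in the order inguinal diet, difference of diet effects, depots on the normal diet, depots on the high-fat diet, depot average, against 2914, 1080, 974, 1587 and 1649. Without an expression filter they were 1364, 230, 193, 780 and 629. With array weights they were 4612, 2836, 2098, 3681 and 3387, and the epididymal diet count went from 2918 to 5110. Fitting only the groups compared gave 713 for the inguinal diet, 14 for depots on the normal diet and 2993 on the high-fat diet. Without inguinal normal-diet replicates 0 and 2 those 3 counts were 999, 562 and 2599. Leaving out 1 library gave 1642 to 4727, 433 to 2627, 264 to 3092, 783 to 2151 and 974 to 3085, and 1819 to 3665 for the epididymal diet. All 6 upper ends came from leaving out inguinal normal-diet replicate 1. Rescaling to nuclear protein-coding FPKM moved the median gene's log2 difference from 0.07 to -0.087 for the epididymal diet, from 0.02 to -0.085 for the diet average, from 0.04 to -0.15 between depots on the high-fat diet and from 0.02 to -0.13 in the depot average. The higher and lower calls went, in the same order, from 1818 and 1100 to 1395 and 1580, from 2450 and 2024 to 2070 and 2795, from 1059 and 528 to 658 and 911, and from 944 and 705 to 628 and 1182. For the difference of diet effects the median was 0.07 and the calls 718 and 362. They were -0.044 with 549 and 607 under the rescaling, -0.031 with 657 and 516 under TMM, -0.09 with 572 and 603 under quantile normalization and -0.08 with 1512 and 1324 under array weights. Between depots on the normal diet, 353 higher and 621 lower calls at a median of 0 became 687 and 621 under quantile normalization and 1153 and 945, at a median of 0.13, under array weights.

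Members called numbered 4 in each depot's diet contrast, 1 in their difference, 2 and 1 between depots on the normal and high-fat diets, and 2 in the depot average. Without a filter they were 2, 2, 0, 0, 0 and 0 in that order; at an unadjusted p under 0.05 limma still passed 4, 2, 2 and 3 in the last 4. Array weights gave 7 for the epididymal diet, 5 for the difference and 4 between depots on the high-fat diet. Fitting only the groups compared gave 2 for the inguinal diet, 0 on the normal diet and 3 on the high-fat diet. Without inguinal normal-diet replicates 0 and 2 there was 1 for the inguinal diet, 0 for the difference, 0 on the normal diet and 1 in the depot average. For the difference of diet effects, the 2 FPKM filter and TMM each gave 2, and quantile normalization and the rescaling each gave 3. Between depots on the high-fat diet, a pseudocount of 0.1 gave 2 and quantile normalization 0, and in the depot average quantile normalization gave 1. Leaving out 1 library gave 2 to 5, 3 to 6, 0 to 4, 1 to 2, 0 to 1 and 1 to 2, in the order above.

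With the replicate number as a block, the Mest calls in the difference of diet effects (limma adjusted p = 0.0565) and in the depot average (limma adjusted p = 0.0568) were lost, leaving 0 and 1 members called there, and Grb10 in epididymal adipocytes was gained (limma adjusted p = 0.048). No other member's call changed. Between the high-fat depots 1777 genes were called with the block.

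None of the direction changes that follow touches a called difference; values are log2 differences. In inguinal adipocytes, Nnat was -0.21 with quantile normalization and -0.49 without inguinal normal-diet replicates 0 and 2, Ndn was -0.21 without those replicates, and Grb10 was 0.0058 with array weights. In the difference of diet effects, Dlk1 was -0.55 with a pseudocount of 0.1, -0.12 with quantile normalization and -0.84 with array weights, and Ndn was 0.64 without replicates 0 and 2. Between depots on the normal diet without those replicates, Peg3 was -0.41, Nnat -0.47, Cdkn1c 0.19, Grb10 -0.18 and Ndn -0.64. In the same contrast Cdkn1c was 0.48 with array weights and Grb10 -0.083 with the rescaling. On the high-fat diet Plagl1 was -0.10 with the rescaling, and Ndn was -0.077 with TMM, -0.10 with quantile normalization, -0.22 with the rescaling and -0.019 with array weights. Averaged over depots, the diet effect of Plagl1 was -0.057 with the rescaling and -0.13 without replicates 0 and 2. In the depot average, Peg3 was 0.21 and Grb10 0.031 with array weights, and Ndn was -0.046 with the rescaling and -0.32 without replicates 0 and 2. With no change of direction, Dlk1 in brown adipocytes passed a 2-fold difference with a pseudocount of 0.1 (-1.41).

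Leaving out 1 library in turn, the inguinal diet effect of Nnat ran from -0.068 to 0.48 and the averaged diet effect of Plagl1 from -0.020 to 0.17. In the difference of diet effects Dlk1 ran from -0.37 to 0.55 and Ndn from -0.65 to 0.10. Between depots on the normal diet Nnat ran from -0.058 to 0.49, Igf2 from -0.12 to 0.25, Cdkn1c from -0.38 to 0.28, Grb10 from -0.24 to 0.17 and Ndn from -0.10 to 0.65. On the high-fat diet Mest ran from -0.27 to 0.041, Plagl1 from -0.036 to 0.34 and Ndn from -0.12 to 0.17. In the depot average Peg3 ran from -0.30 to 0.086 and Ndn from -0.047 to 0.33.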
